A study of Mus musculus with 8 samples.

Results

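Conventional CD4 T cells of the mouse spinal cord were compared between the chronic stage of experimental autoimmune encephalomyelitis (EAE), 50 days after immunization, and its acute stage at day 14. All barcodes of both spinal cord RNA libraries with 500 or more detected genes and at most 10% of their RNA counts from mitochondrial genes were taken, without any selection on expression. This gave 10890 cells of the 21551 that pass the same limits in the series, namely 9270 of 9482 barcodes at day 14 and 1620 of 1651 at day 50. The mice in both groups were Foxp3-Cre-YFP animals, in which regulatory T cells carry a yellow fluorescent protein, and all had been immunized for EAE. Cells that were CD44+, Foxp3-YFP-, TCRβ+ and CD11b- were sorted from the digested cord, so that antigen-experienced T cells without the Foxp3 reporter were profiled. The labels state neither the age of the mice nor how many mice each library holds. There was 1 library per group, and all differences given here are between single libraries, with no test across animals. The other 2 RNA libraries came from brain without meninges at the same days.

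EAE is a model of multiple sclerosis in which CD4 T cells specific for myelin enter the central nervous system and recruit other leukocytes. The cells of the acute attack are mostly of the Th1 type, which makes interferon gamma, and of the Th17 type, which makes interleukin 17 and GM-CSF. After an inflammation has settled, some T cells stay behind in the tissue as resident memory cells, which do not recirculate through blood and lymph and are recognised by the surface proteins CD69 and CXCR6. The series concerns the place of such cells in chronic autoimmunity.

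Transcripts and 3 surface proteins were counted per cell by CITE-seq, in which antibodies carry DNA barcodes that are read beside the RNA. Each count is a unique molecular identifier (UMI), that is, 1 captured molecule. The kept cells held 50710551 RNA UMIs at day 14 and 6078142 at day 50, with a median of 4921 and 3470.5 UMIs per cell. At an equal depth of 2000 UMIs per cell the median cell showed 933 genes at day 14 and 834 at day 50, and ribosomal protein genes took 31.1% and 38.0% of all RNA UMIs. Only 5 barcodes occurred in both spinal cord libraries. Every cell at 2000 UMIs held a transcript of the T cell list, with a median of 21 such UMIs at day 14 and 20 at day 50, so the T cell label was met. Cd4 itself was lower at day 50, at 233 CPM at day 14 and 112 CPM at day 50, and was found in 35.1% of cells at day 14 and 18.9% at day 50 at equal depth. Cd8b1 stood at 6.47 CPM at day 14 and 4.94 CPM at day 50, Cd8a gave 8 UMIs at day 14 and 0 at day 50, where 0 allows up to 0.494 CPM, and Foxp3 gave 1 UMI in each library. Transcripts of some other lineages moved with the day. The 4 measured gamma-delta T cell receptor genes summed to 6.61 CPM at day 14 and 22.5 CPM at day 50, and B cell genes to 27.4 and 91.1 CPM, nearly all of it Igkc and Ighm, while Cd79a and Ms4a1 were at 0 and Cd79b at 4 UMIs at day 50. Of the 13 microglia and macrophage genes, Cst3 held most of the sum of 249.5 CPM at day 14 and 185 CPM at day 50, and P2ry12, Tmem119, Csf1r and Itgam were at 0 at day 50. Leaving out the cells with a UMI of the CD8, gamma-delta or B cell lists (14.2% of cells at day 14 and 25.2% at day 50) gave relative log2 ratios, defined in the next paragraph, of 3.05 for Gzmk, 3.15 for Vps37b, 2.11 for Junb, -1.19 for S100a4 and -2.45 for Il1r1, against 2.96, 3.09, 2.08, -1.28 and -2.66 with all cells. Since every cell was sorted as a T cell, no cell type was at hand in which free RNA could be measured.

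UMIs were summed per library and scaled to CPM, the UMIs of a gene relative to the library's total. Of 13175 genes with 10 or more UMIs over both libraries, the median log2 ratio of day 50 to day 14 was -0.29, and ratios below are given relative to that median unless stated. A gene was called higher or lower where its relative ratio was at least 1.5-fold and its exact 95% interval, which covers counting error only, left out 0 on the log2 scale. At day 50, 1564 genes (11.9% of those compared) were called higher and 1526 (11.6%) were called lower. Without subtracting the median the split was 891 higher (6.76%) and 3133 lower (23.8%). Where the balance of a gene list below moved with that choice, its counts without subtracting the median are given as unsubtracted counts. In either direction 23.5% of the genes were called, and 30.5% without subtracting the median. Counts of called genes in the lists below are to be read beside these all-gene shares. Among the 2735 genes at 50 CPM or more in either library, 363 were higher and 262 lower. In summed counts, fewer cells with a transcript and less of it per cell cannot be told apart, so the share of cells with a UMI was also taken at 2000 UMIs per cell, in 9128 cells at day 14 and 1493 at day 50. Of 8674 genes found in 1% of cells or more, 414 (4.77%) were found in a higher share of cells at day 50 and 1933 (22.3%) in a lower share. The libraries' difference in genes per cell at that depth and in ribosomal share, given above, moves with these counts, and its part was not tested. Both measures called 413 genes higher and 1019 lower, and 1 gene, Il17a, was called in opposite directions by them. The CPM call of Il17a was lost when cells were thinned to 2000 UMIs before summing.

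**Figure D1:**
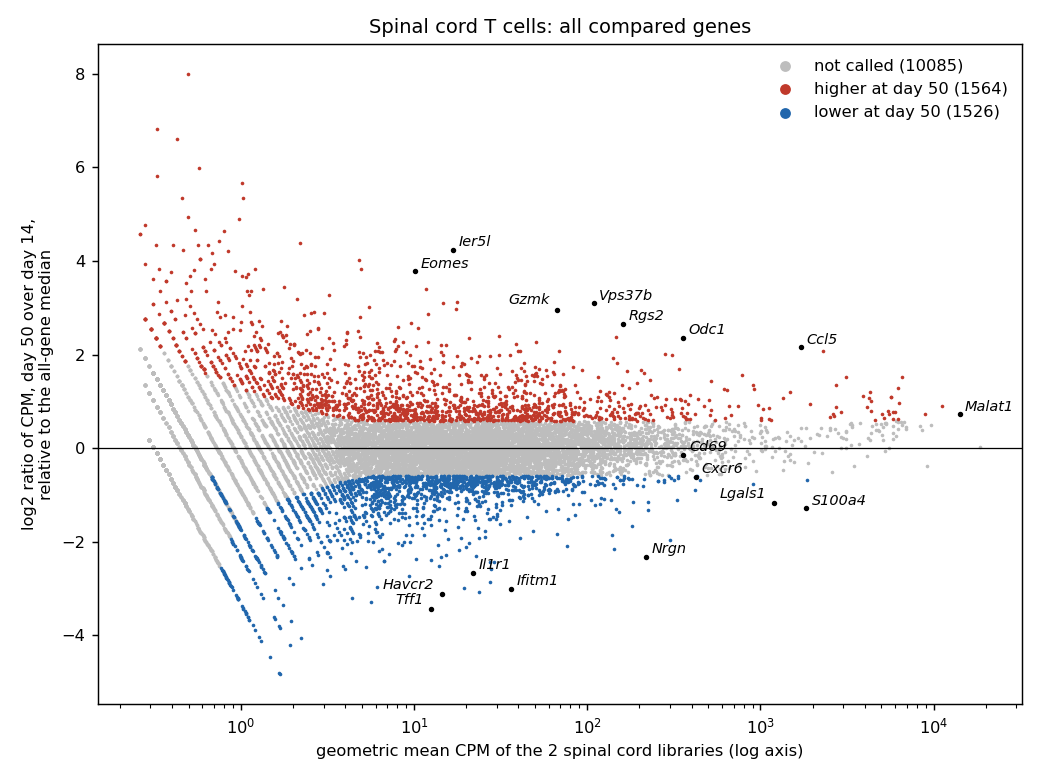
Each point is 1 of 13175 genes, placed by the geometric mean of its CPM in the day 14 and day 50 spinal cord libraries (log axis) and by its log2 ratio of CPM relative to the all-gene median. The 1564 genes called higher are red, the 1526 called lower are blue, and named examples such as Gzmk, Eomes, Vps37b and Ccl5 stand at the top, with Tff1, Havcr2 and Il1r1 at the bottom.

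Ccl5, Gzmk and Eomes were higher at day 50. Gzmk encodes granzyme K, a granule protease. It stood at 26.7 CPM at day 14 and 169 CPM at day 50, a relative log2 ratio of 2.96 (95% counting interval 2.84 to 3.08). It was found in 3.59% of cells at day 14 and 20.2% at day 50, with 1.78 and 1.98 UMIs per cell that held it, so nearly all of the difference lay in the share of cells. Eomes, which encodes a T-box factor of cytotoxic lymphocytes, rose from 3.02 to 33.9 CPM, a ratio of 3.78 (3.47 to 4.09), and from 0.570% to 6.90% of cells. Ccl5, a chemokine that draws T cells and monocytes, stood at 900.0 CPM at day 14 and 3287 CPM at day 50, a ratio of 2.16 (2.13 to 2.18). Here the share of cells, at 25.9% and 49.9%, and the amount per positive cell, at 8.13 and 15.6 UMIs, each gave 0.94 of the log2 difference.

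Gzmk was found more often in cells that held Eomes or Ccl5 than in cells that did not, at both days. At day 14, Gzmk was found in 33 of 52 cells with an Eomes UMI, or 63.5% (exact 95% interval 49.0 to 76.4), against 3.25% of cells without one. At day 50 it was found in 83 of 103 such cells, or 80.6% (71.6 to 87.7), against 15.8% of the others. Among cells with a Ccl5 UMI, Gzmk was found in 11.1% (9.83 to 12.4) at day 14 and in 37.9% (34.4 to 41.4) at day 50, and among cells without it in 0.98% and 2.67%. Ccl5 was found in 36.8% of cells with a UMI of Nkg7, a granule membrane gene, at day 14 and in 72.1% at day 50. Nkg7 itself was not called, at 763 CPM at day 14 and 872 CPM at day 50, but it was called in sums of cells thinned to 2000 UMIs.

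Of the 19 genes of cytotoxic granules and NK-type receptors, 3 were called higher and 8 lower. Thinning each cell to 2000 UMIs before summing gave 5 higher and 4 lower, so the balance of this list depended on depth. Besides Gzmk, those higher at full depth were Prf1, which encodes the pore former perforin, and Fasl, the ligand of the death receptor Fas. Prf1 stood at 3.98 CPM at day 14 and 11.2 CPM at day 50, and Fasl at 43.3 CPM at day 14 and 89.7 CPM at day 50. Gzma, the granzyme A gene, went the other way, from 60.2 to 6.25 CPM, a ratio of -2.98 (-3.48 to -2.52), with 78.9% of its 38 UMIs at day 50 in 2 cells. It was found in 207 cells at day 14 and 10 at day 50 at full depth, and its ratio was -4.85 without the 2 richest cells of each library. Cd160, a receptor for HVEM that is shared with NK cells, fell from 74.4 to 11.4 CPM. Gzmb, the granzyme B gene, was not called, at 32.8 CPM at day 14 and 30.9 CPM at day 50, with 43.6% of its day 50 UMIs in 2 cells. Gzmk and Gzma both lie on mouse chromosome 13 and moved in opposite directions, and their promoters (250 bases before to 50 after the start, from RefSeq, GRCm38.p6, in the direction of the gene) are shown for that reason.
Gzmk, chr13:113180916-113181215, minus strand: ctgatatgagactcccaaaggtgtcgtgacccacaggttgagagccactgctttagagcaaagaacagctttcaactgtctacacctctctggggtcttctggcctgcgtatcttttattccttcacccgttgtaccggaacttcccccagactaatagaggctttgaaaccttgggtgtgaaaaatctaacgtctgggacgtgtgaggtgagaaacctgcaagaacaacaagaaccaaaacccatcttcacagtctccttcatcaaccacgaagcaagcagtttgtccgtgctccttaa
Gzma, chr13:113100932-113101231, minus strand: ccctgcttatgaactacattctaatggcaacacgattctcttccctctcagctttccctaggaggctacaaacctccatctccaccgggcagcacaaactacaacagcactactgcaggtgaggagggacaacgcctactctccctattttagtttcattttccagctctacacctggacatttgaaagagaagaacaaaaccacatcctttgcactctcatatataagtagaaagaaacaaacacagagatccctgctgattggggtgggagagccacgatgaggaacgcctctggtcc

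Among chemokines, 3 of 9 measured genes were higher and 3 lower, with a median of -0.11. In cells thinned to 2000 UMIs before summing, 4 of 8 were higher and 1 lower, with a median of 0.41. Without the cells holding a Ccl5, Gzmk or Eomes UMI, 2 of 7 were higher and 4 lower. Xcl1, the ligand of the dendritic cell receptor XCR1, rose from 87.2 to 251 CPM and from 1.31% to 19.96% of cells. At day 14, 22.2% of its UMIs lay in 2 cells, and its share of cells moved more than its CPM. Cxcl10, an interferon-induced ligand of CXCR3, rose from 4.16 to 21.9 CPM. Ccl1, the ligand of CCR8, was at 659 CPM at day 14 and 139 CPM at day 50, with 58.1% of the day 50 UMIs in 2 cells, and was found in 8.12% of cells at day 14 and 1.27% at day 50. Ccl3, a ligand of CCR1, was lower in CPM at 32.02 CPM at day 14 and 14.8 CPM at day 50, with 50.0% of day 50 UMIs in 2 cells, but was found in 1.02% of cells at day 14 and 1.41% at day 50.

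Of 13 measured chemokine receptors, 6 were higher and 4 lower, or 4 and 5 in unsubtracted counts. Those higher included Ccr7 (1.71), which guides cells to lymph nodes, Ccr9 (1.56), the gut-homing receptor, Cxcr4 (1.21), Cxcr3 (0.62) and Ccr8 (0.60). The last 2 were not called without subtracting the median. Lower were Ccr1 (-3.81, on 2 UMIs at day 50), Cx3cr1 (-1.43), Ccr2 (-0.69), the receptor of inflammatory migration, and Cxcr6 (-0.61). The Cxcr6 call was lost under some alternatives, given below. Without the cells holding a UMI of Ccl5, Gzmk or Eomes (35.3% of cells at day 14 and 56.4% at day 50), Prf1 turned to -1.09, Gzma was no longer called, at -0.13, and 4 chemokine receptors were higher and 4 lower.

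Immediate early genes and members of the AP-1 family, transcription factors switched on within minutes of a stimulus, were called higher in most cases. Of 24 measured, 16 were called higher and 1 lower, a median of 0.90, against 11.9% and 11.6% over all genes. In unsubtracted counts 13 were higher and 2 lower, against 6.76% and 23.8%. At 2000 UMIs the median cell held 12 UMIs of the list at day 14 and 21 at day 50, and the 10th percentile moved from 5 to 10. Junb stood at 1229 CPM at day 14 and 4256 CPM at day 50 and was found in 77.4% of cells at day 14 and 95.04% at day 50. Its amount per positive cell rose by 1.42 on the log2 scale. Ier5l rose from 4.26 to 65.97 CPM, a ratio of 4.24, and Maff, a small MAF factor, from 5.58 to 38.99 CPM. Atf3, a stress-induced factor, stood at 4.02 CPM at day 14 and 34.5 CPM at day 50, and Csrnp1, an AXIN1-induced nuclear protein, at 36.9 CPM at day 14 and 127 CPM at day 50. The list was not uniform, since Fosb fell by 0.76 and Fos (0.03), Jun (-0.16) and Batf (-0.13) were not called.

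Promoters of the 15 called genes in each direction with intervals farthest from 0 were searched on both strands for the cyclic AMP response element TGACGTCA and the AP-1 site TGANTCA. Promoters were found for 12 of the higher and 13 of the lower genes. The AP-1 letters occurred in 1 of 12 higher genes (8.33%), 1 of 13 lower genes (7.69%) and 8.97% of 27025 genes, and TGACGTCA in none of the 25 against 2.03% of all. The 2 promoters with a match are shown with it in capitals, 1 from a higher gene, for 1 of its 4 listed starts, and 1 from a lower gene.
Csrnp1, chr9:119982974-119983273, minus strand: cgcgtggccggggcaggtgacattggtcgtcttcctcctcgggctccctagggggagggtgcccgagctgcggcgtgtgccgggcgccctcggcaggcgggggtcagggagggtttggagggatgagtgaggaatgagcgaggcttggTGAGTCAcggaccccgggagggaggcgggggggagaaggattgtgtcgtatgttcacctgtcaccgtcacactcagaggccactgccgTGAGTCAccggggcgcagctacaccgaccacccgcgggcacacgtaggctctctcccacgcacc
AA467197, chr2:122637637-122637936, plus strand: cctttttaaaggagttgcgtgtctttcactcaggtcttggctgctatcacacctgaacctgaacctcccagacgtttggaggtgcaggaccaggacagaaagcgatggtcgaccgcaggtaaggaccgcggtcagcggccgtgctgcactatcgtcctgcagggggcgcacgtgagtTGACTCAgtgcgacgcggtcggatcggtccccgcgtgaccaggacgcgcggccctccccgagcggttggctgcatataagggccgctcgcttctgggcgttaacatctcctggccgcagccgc
AA467197, whose product is also known as NMES1, fell from 334 to 61.4 CPM and from 36.8% to 8.24% of cells. A match is a description of letters and does not show binding.

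Some genes that damp signalling rose beside the immediate early genes. Of 8 measured MAP kinase phosphatases, which switch off ERK, p38 and JNK, 3 were higher and none lower. Dusp5 stood at 170.2 CPM at day 14 and 557 CPM at day 50 and was found in 26.4% of cells at day 14 and 56.7% at day 50. Dusp10 rose from 25.4 to 99.7 CPM, and Dusp1 from 111 to 230.2 CPM. Of 16 NF-kB genes, 4 were higher and 2 lower, against 11.9% and 11.6% over all genes. In unsubtracted counts 3 were higher and 3 lower, against 6.76% and 23.8%. Among the higher ones were Tnfaip3, the A20 inhibitor of NF-kB, at 209 CPM at day 14 and 553 CPM at day 50, and Zc3h12a, the mRNA-cleaving enzyme Regnase-1, at 33.1 CPM at day 14 and 73.4 CPM at day 50. Nfkb1 (-0.95) and Bcl3 (-1.49) were lower, and the median of this list, 0.14, turned to -0.15 without subtracting the all-gene median. Socs3, an inhibitor of cytokine receptors that use STAT3, rose from 41.02 to 100.4 CPM, while Cish fell from 172 to 64.99 CPM.

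Genes outside the immediate early list rose as well. Vps37b, a subunit of the ESCRT-I sorting complex, stood at 41.2 CPM at day 14 and 288 CPM at day 50, a ratio of 3.09, and was found in 8.55% of cells at day 14 and 35.03% at day 50. Odc1, ornithine decarboxylase, which starts polyamine synthesis, rose from 174 to 734 CPM and from 25.1% to 57.8% of cells. Gna13, the G protein alpha subunit of migration-restraining receptors, rose from 153 to 509.5 CPM. Pim3, a survival kinase, St3gal6, a sialyltransferase, and Izumo1r, the folate receptor 4 gene, rose by 2.08, 2.22 and 2.39 on the log2 scale. Leaving out the cells with a Ccl5, Gzmk or Eomes UMI gave 3.26 for Vps37b, 2.39 for Odc1, 2.98 for Rgs2, 2.01 for Dusp5 and 2.08 for Junb, so these rises were as large in the remaining cells. By contrast, Ier3, an early response gene, turned from 2.35 to -0.89 without those cells, and Ifit3 from 1.03 to -0.08.

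**Figure D2:**
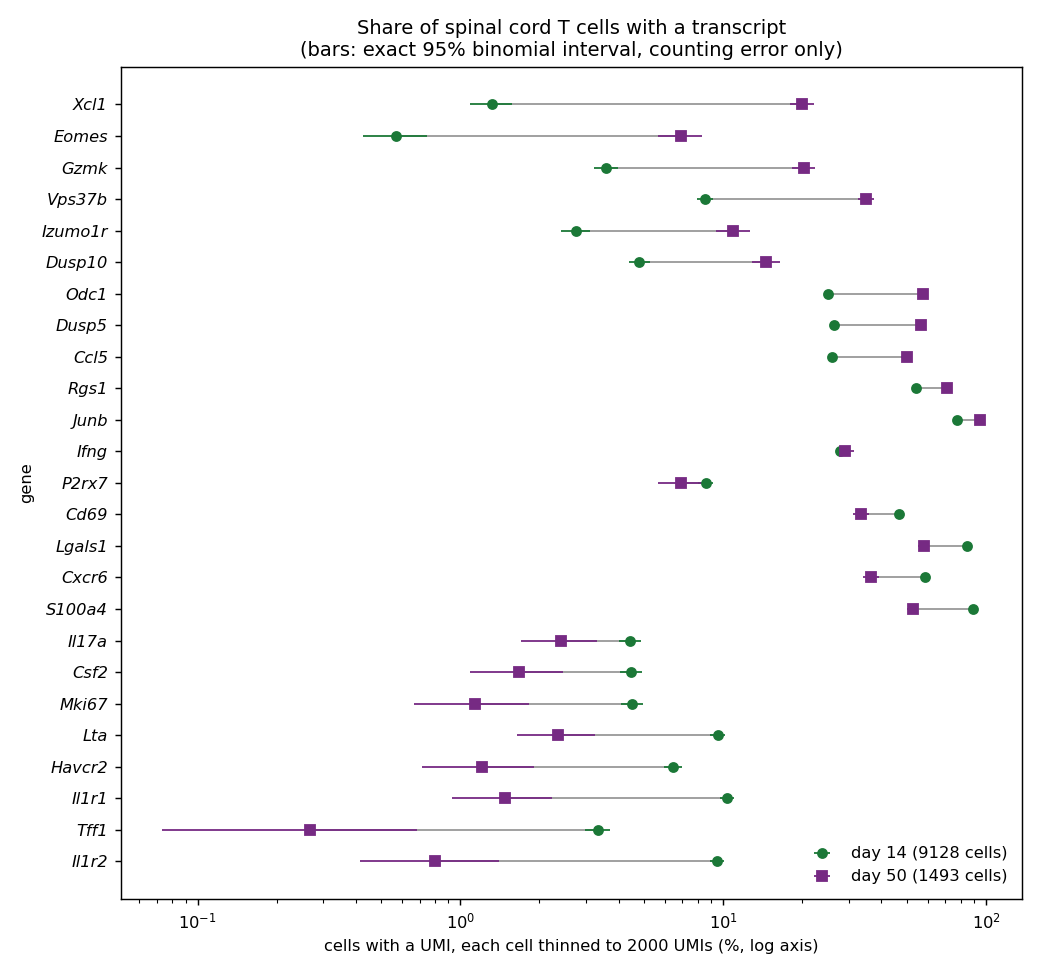
Share of spinal cord T cells with at least 1 UMI of each gene after thinning every cell to 2000 UMIs (log axis), at day 14 (green circles, 9128 cells) and day 50 (purple squares, 1493 cells), with exact 95% binomial intervals. Xcl1, Eomes, Gzmk and Vps37b are farthest to the right at day 50 relative to day 14, and Il1r2 and Tff1 farthest to the left.

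Genes induced through the T cell receptor split. Of 20 measured, 7 were higher and 4 lower, but in unsubtracted counts 5 were higher and 8 lower. Nr4a2, an orphan nuclear receptor, rose from 32.5 to 86.2 CPM, and Egr1 from 105 to 271 CPM. The zinc finger factors Egr2 and Egr3, linked with T cell anergy, fell instead, Egr2 from 31.8 to 4.94 CPM (-2.40, interval -2.97 to -1.88) and Egr3 from 39.99 to 8.72 CPM (-1.91, interval -2.33 to -1.52). Tnfrsf9, the costimulatory receptor 4-1BB, fell from 54.03 to 16.6 CPM. Egr1 was found in 16.4% of cells at day 14 and 19.7% at day 50, so most of its rise lay in the amount per positive cell (1.08 on the log2 scale, against 0.26 in the share of cells), while Egr2 was found in 4.40% of cells at day 14 and 1.005% at day 50.

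The residency list divided by gene. Of 21 measured genes, 7 were higher and 3 lower, or 5 and 5 in unsubtracted counts, and the median of 0.24 became -0.05 without subtracting the all-gene median and -0.08 without cells holding a Ccl5, Gzmk or Eomes UMI. Rgs2 and Rgs1, inhibitors of G protein signalling, stood at 71.1 CPM at day 14 and 366 CPM at day 50 and at 658 CPM at day 14 and 1289 CPM at day 50 respectively. Itga1, the alpha chain of the collagen receptor VLA-1, rose from 14.4 to 31.3 CPM, and Zfp683, which encodes the residency factor Hobit, from 1.62 to 3.62 CPM. None of the genes of the 3 proteins measured on the surface was called higher. Cxcr6 was lower, at 579.8 CPM at day 14 and 311 CPM at day 50 and in 58.8% of cells at day 14 and 36.5% at day 50. Its CPM ratio lay near the 1.5-fold limit. The call was lost with limits of 1000 genes and 5% mitochondrial UMIs, and with a minimum of 50 UMIs. It was also lost without the 2 richest cells of each library, and without cells with a UMI of Mki67, Top2a, Cdk1, Birc5 or Rrm2. Cd69 was not called in CPM, at 417 CPM at day 14 and 309.6 CPM at day 50 and a ratio of -0.14 (-0.21 to -0.07), and P2rx7, the ATP-gated channel, was at 50.96 CPM at day 14 and 41.95 CPM at day 50 with a ratio of 0.01 (-0.18 to 0.19). Itgae, which encodes the CD103 chain of mucosal resident cells, gave only 112 and 13 UMIs and was not called. Rbpj, the nuclear partner of Notch, fell from 256 to 84.7 CPM.

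Genes of exit from tissue showed no common direction. Of 13 measured, 2 were higher and 3 lower, or 1 and 4 in unsubtracted counts. Without the cells holding a Ccl5, Gzmk or Eomes UMI, 4 were higher and 1 lower, with a median of 0.21 in place of -0.03. Klf2, which drives S1pr1, stood at 131 CPM at day 14 and 105 CPM at day 50 (-0.03, interval -0.15 to 0.08) and was found in a lower share of cells, 20.04% and 13.1%, and S1pr1, the receptor for exit into lymph, at 86.7 CPM at day 14 and 95.4 CPM at day 50 (0.43, interval 0.30 to 0.55). Neither was called in CPM, but S1pr1 was called higher without the Ccl5, Gzmk or Eomes cells, at 1.07. Tcf7, a factor of stem-like memory cells, was at 111 CPM at day 14 and 119 CPM at day 50 and was not called, although it was called higher without those cells, at 0.61, while its relative Lef1 fell from 123 to 53.96 CPM. Of 31 measured memory and lineage transcription factors, 5 were higher and 10 lower, or 4 and 14 in unsubtracted counts. Their median of 0.19 turned to -0.10 without subtracting the all-gene median. Other memory and lineage factors that rose were Tox (1.92), Ikzf2 (1.80), Foxp1 (0.59) and Zfp683 (1.45), and those that fell included Zeb2 (-1.53), Runx2 (-1.34), Bcl6 (-1.51) and Myb (-1.38). Foxp1 was not called without subtracting the median.

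Surface protein counts were lower at day 50 for all 3 antibodies. The median cell held 9 CD69 UMIs at day 14 and 4 at day 50, 9 and 7 P2X7 UMIs, and 22 and 11 CXCR6 UMIs. Cells with no CD69 antibody UMI made up 0.33% at day 14 and 16.3% at day 50. All antibody UMIs together had a median of 50 and 26 per cell, and the mean per cell at day 50 was 0.48 times that at day 14 for CD69, 0.616 times for P2X7, 0.601 times for CXCR6 and 0.567 times for the sum. As shares of the antibody UMIs of each library, CD69 moved from 31.6% to 26.8%, P2X7 from 25.2% to 27.4% and CXCR6 from 43.2% to 45.9%. There is no control antibody in the files used here, so a difference in staining or antibody depth between the libraries and a difference in protein cannot be told apart. Within each library the median antibody count was higher in cells with a UMI of the protein's own gene than in cells without one. For CD69 the medians were 10 and 8 UMIs at day 14 and 6 and 3 at day 50. For P2X7 they were 25 and 7 at day 14 and 14 and 6 at day 50, and for CXCR6 26 and 9 at day 14 and 17 and 4 at day 50. This relation was also used to settle which antibody each row holds, so it is no independent check of the labels.

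**Figure D3:**
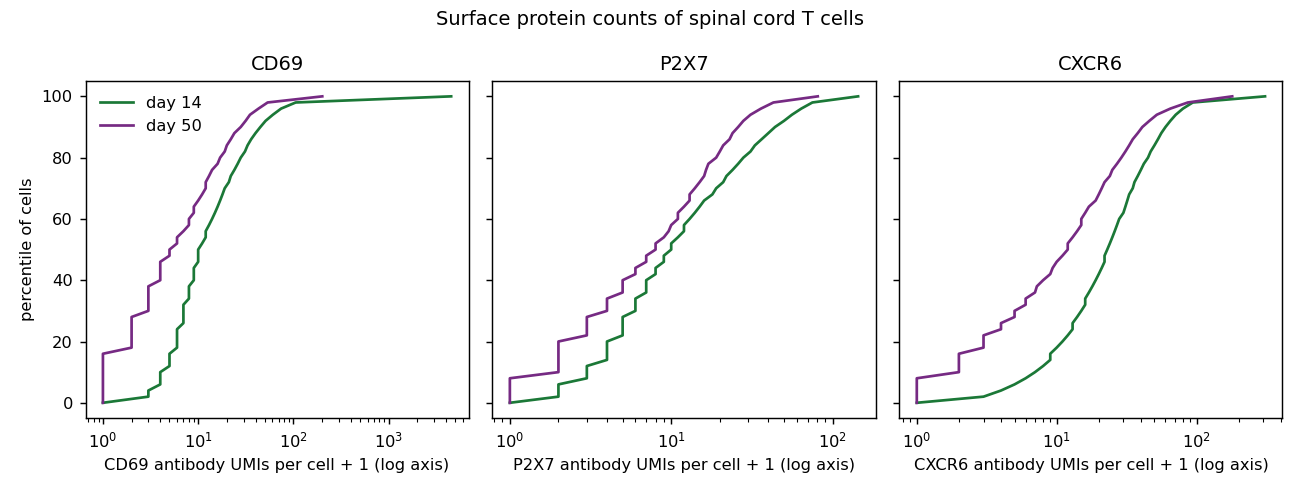
Percentile of kept cells (vertical) against antibody UMIs per cell plus 1 (horizontal, log axis) for CD69, P2X7 and CXCR6 at day 14 (green) and day 50 (purple). The day 50 curve lies to the left for each protein over most of the range, with medians of 4, 7 and 11 UMIs against 9, 9 and 22.

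Some receptor genes of Th17 cells fell, while their cytokine genes went in different directions. Of 17 measured, 3 were higher and 5 lower, or 1 and 8 in unsubtracted counts, and without the cells holding a Ccl5, Gzmk or Eomes UMI 4 were higher and 4 lower. Il1r1, the signalling interleukin 1 receptor, fell from 60.9 to 7.90 CPM (-2.66, interval -3.10 to -2.25). Il23r, the receptor that maintains Th17 cells, fell from 7.26 to 2.14 CPM on 13 UMIs at day 50. Outside that list, Il1r2, the decoy receptor for interleukin 1, fell from 76.3 to 7.40 CPM (-3.08, interval -3.53 to -2.65), and Tff1, a trefoil peptide gene, from 45.6 to 3.46 CPM (-3.43, interval -4.13 to -2.82).

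Il17a was called higher in CPM, at 94.1 CPM at day 14 and 120.4 CPM at day 50, yet was found in fewer cells, 4.42% at day 14 and 2.41% at day 50. Cells that held it had 3.60 UMIs on average at day 14 and 7.97 at day 50, and 22.4% of its day 50 UMIs lay in 2 cells. Without the 2 richest cells of each library, or without subtracting the median, it was no longer called, at 0.45 and 0.36. The call was also lost in cells thinned to 2000 UMIs before summing, with no minimum of UMIs, and without ribosomal protein and mitochondrial genes. It was lost as well without the cells holding 3 or more UMIs of the S phase and mitosis lists. The same held without cells with a UMI of Mki67, Top2a, Cdk1, Birc5 or Rrm2. Among cells with a UMI of Tmem176b, a membrane protein gene of Th17 cells, Il17a was found in 9.12% at day 14 and 10.9%, or 22 of 202 cells, at day 50. Among the others it was found in 3.37% and 1.08%. Il17f rose from 3.63 to 17.8 CPM, with 63.9% of day 50 UMIs in 2 cells, and Il22 was not called, at 32.7 CPM at day 14 and 21.7 CPM at day 50 with 77.3% in 2 of the 12 cells that held it, although it was found in 2.005% of cells at day 14 and 0.603% at day 50. Il22 was called lower without subtracting the median, at -0.59, and without the 2 richest cells of each library, at -2.18.

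Csf2, which encodes GM-CSF, fell from 55.02 to 12.01 CPM (-1.91, interval -2.26 to -1.57) and from 4.46% to 1.67% of cells. Lta, the lymphotoxin alpha gene, fell from 87.7 to 18.9 CPM. Ifng, the interferon gamma gene and main product of Th1 cells, was not called, at 402 CPM at day 14 and 326 CPM at day 50, with a relative ratio of -0.01 (-0.08 to 0.05), and in 27.9% of cells at day 14 and 29.1% at day 50. Tbx21, which encodes the Th1 factor T-bet, was at 22.3 CPM at day 14 and 14.5 CPM at day 50 and was called lower only without subtracting the median. Of 14 measured Th1 genes, 3 were higher and 3 lower, or 1 and 6 in unsubtracted counts. Without the cells holding a Ccl5, Gzmk or Eomes UMI, none was higher and 4 were lower. The Th1 receptors Il12rb2 (-1.53) and Il18rap (-1.51) fell, while Hopx (0.73) was called higher. That call was lost without subtracting the median, at 0.44, and without the cells holding a Ccl5, Gzmk or Eomes UMI, at 0.40. Over all 18 measured secreted cytokines, 7 were higher and 5 lower, or 7 and 7 in unsubtracted counts. The higher ones included Areg, the epithelial growth factor amphiregulin, at 16.6 CPM at day 14 and 40.1 CPM at day 50, and Tnfsf8, the CD30 ligand, at 52.5 CPM at day 14 and 100.4 CPM at day 50, and also Il4 and Il10 at low counts, with 9 and 36 and 47 and 18 UMIs at day 14 and day 50.

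Receptors for cytokines and for inhibition changed in both directions. Of 27 measured cytokine receptors, 9 were higher and 7 lower, but in unsubtracted counts 5 were higher and 12 lower. Il2ra, the high-affinity chain for interleukin 2, fell from 52.1 to 12.5 CPM, while Il10ra (1.89), Ifngr2 (2.16), Ifnar2 (1.19) and Il4ra (1.05) rose. Of 12 measured inhibitory receptors, 3 were higher and 5 lower, or 2 and 6 in unsubtracted counts. Ctla4, which competes for the ligands of CD28, rose from 75.5 to 177 CPM and from 12.1% to 22.2% of cells. Those lower were Havcr2, which encodes TIM-3, at 47.01 CPM at day 14 and 4.44 CPM at day 50, Pdcd1, which encodes PD-1, at 50.5 CPM at day 14 and 14.5 CPM at day 50, Lag3 (-1.12), Lilrb4a (-1.20) and Cd160 (-2.42). Cd27, a costimulatory receptor of memory cells, rose from 19.9 to 65.2 CPM.

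The S100, galectin and annexin list, genes of calcium binding, glycan binding and motility that mark effector T cells, fell in part and rose in none. Of 17 measured, 8 were lower and none higher, a median of -0.56, or 13 and none in unsubtracted counts. The median cell held 30 UMIs of the list at day 14 and 16 at day 50. S100a4 stood at 3173 CPM at day 14 and 1067 CPM at day 50, a ratio of -1.28 (-1.32 to -1.25), and was found in 89.1% (exact 95% interval 88.5 to 89.8) of cells at day 14 and 52.8% (50.2 to 55.3) at day 50. Lgals1, galectin 1, fell from 1979 to 719.8 CPM, Lgals3 from 270.0 to 85.6 CPM, and Capg, an actin-capping protein, from 538 to 204 CPM. S100a11 (0.21), Emp3 (-0.03) and Crip1 (-0.13) were not called. Of 11 measured interferon-induced transmembrane (IFITM) and Ly6 family genes, 3 were higher and 5 lower, or 3 and 7 in unsubtracted counts. Among those lower, Ifitm1 fell from 114 to 11.7 CPM, Ifitm2 from 291 to 65.8 CPM and Ifitm3 from 357 to 92.1 CPM. Of the 71 Ifitm1 UMIs at day 50, 81.7% lay in 2 cells.

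**Figure D4:**
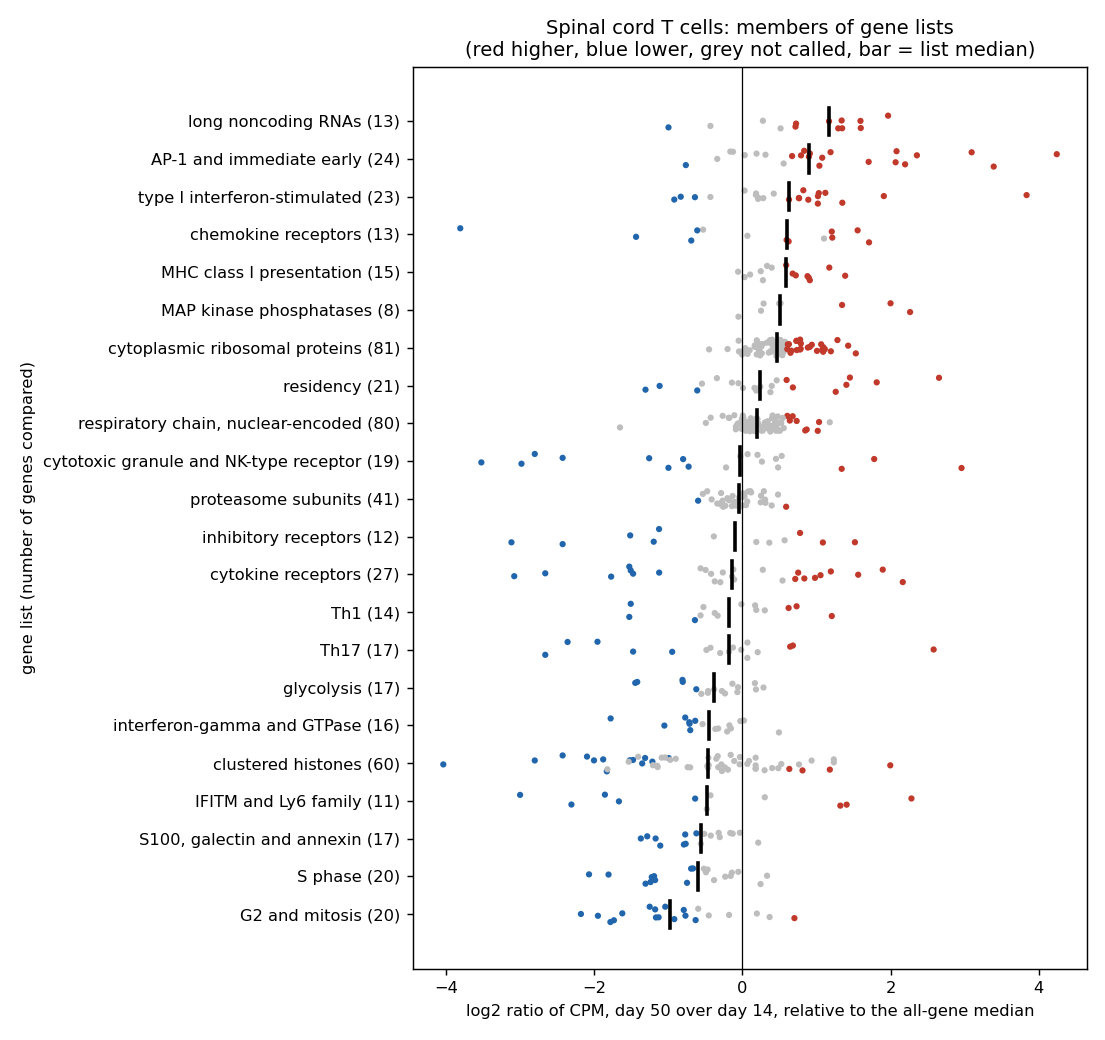
Relative log2 ratio of CPM (day 50 over day 14) of every compared member of 22 gene lists; each point is 1 gene, red where called higher, blue where called lower and grey where not called, and the black bar is the list median. The medians run from -0.98 for G2 and mitosis genes to 1.17 for long noncoding RNAs, and several lists hold red and blue points together.

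Among interferon genes, called genes of the type I list were mostly higher and those of the interferon gamma list lower. Of 23 measured genes induced by type I interferon, 12 were higher and 3 lower, a median of 0.63, or 8 and 4 in unsubtracted counts. Without the cells holding a Ccl5, Gzmk or Eomes UMI, only 4 of 22 were higher and 3 lower, with a median of 0.12. Isg15, a ubiquitin-like modifier, stood at 45.4 CPM at day 14 and 75.4 CPM at day 50, and Ifi27l2a at 629 CPM at day 14 and 1312 CPM at day 50 and in 36.1% of cells at day 14 and 59.7% at day 50. Oas1a, which senses double-stranded RNA, rose from 1.87 to 5.76 CPM. Of 16 GTPases and other genes induced by interferon gamma, none was higher and 7 were lower, a median of -0.45. Without those cells 9 were lower and none higher, and in unsubtracted counts of all cells 10 were lower and none higher. Igtp, an immunity-related GTPase, fell from 90.4 to 45.1 CPM and Gbp7 from 83.1 to 43.8 CPM. Of 15 genes of MHC class I presentation, 8 were higher and none lower, and 5 were higher both in unsubtracted counts and without those cells. H2-D1 stood at 2223 CPM at day 14 and 3347 CPM at day 50, and the nonclassical genes H2-Q4, H2-Q6 and H2-Q7 were higher by 1.39, 1.17 and 0.91. Near-identical copies among these genes can share reads, so single members are uncertain. B2m (0.28), Tap1 (-0.06) and Nlrc5 (0.03) were not called.

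Genes of the cell cycle were lower in many cases. Of 20 measured S phase genes 10 were lower and none higher, and of 20 genes of G2 and mitosis 14 were lower and 1 higher. In unsubtracted counts 14 and 16 of these lists were lower, and none was higher. The summed counts per cell differed less. At 2000 UMIs the median cell held 1 UMI of the S phase list at both days, with a mean of 1.33 at day 14 and 1.04 at day 50, and 1 UMI of the G2 and mitosis list at day 14 and 2 at day 50, with a mean of 2.29 and 2.39. The latter sum was mostly Hmgb2, a chromatin protein gene with 43400 UMIs at day 14 and 5495 at day 50, which was not called, at 0.37. Tuba1b, a tubulin gene, was the 1 called higher, at 0.70, and was not called without subtracting the median. Mki67, the proliferation marker Ki-67, fell from 42.7 to 7.73 CPM (-2.18, interval -2.63 to -1.76) and from 4.51% to 1.14% of cells. At full depth, cells with a UMI of Mki67, Top2a, Cdk1, Birc5 or Rrm2 made up 25.9% at day 14 and 8.70% at day 50, at the 2 different depths. Without them, 1539 genes were called higher and 1355 lower, and the ratio was 2.83 for Gzmk, 3.03 for Vps37b, -1.28 for S100a4 and -2.84 for Il1r1. Of 60 clustered histone genes, 4 were higher and 13 lower, a median of -0.46, or 2 and 21 in unsubtracted counts. Without the cells with a UMI of those 5 genes, 6 of 41 histone genes were higher and 5 lower, with a median of -0.14. With all cells, Hist1h1e, a linker histone, was at 174 CPM at day 14 and 33.4 CPM at day 50.

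Of 81 measured ribosomal protein genes, 25 were higher and none lower, a median of 0.47, or 13 and 1 in unsubtracted counts, with a median of 0.18, and the median cell held 622 ribosomal UMIs of 2000 at day 14 and 757 at day 50. Rps27 stood at 4285 CPM at day 14 and 10134 CPM at day 50 and Rps29 at 4402 CPM at day 14 and 8768 CPM at day 50, and their copies elsewhere in the genome make single values uncertain. Of 13 long noncoding RNAs 9 were higher and 1 lower, or 7 and 2 in unsubtracted counts, among the higher ones the snoRNA host genes Snhg8 (1.60), Snhg9 (1.97) and Snhg12 (1.59); snoRNAs are cut from the introns of such genes. Nuclear-encoded respiratory chain genes had 8 of 80 higher, a share near the 11.9% of all genes, and none lower, or 2 and 2 in unsubtracted counts, and their median of 0.19 turned to -0.10 without subtracting the all-gene median. Of 17 glycolysis genes 5 were lower and none higher, or 9 and none in unsubtracted counts. The 5 included Slc2a3, the glucose transporter GLUT3, at 40.5 CPM at day 14 and 12.2 CPM at day 50. Also among the 5 were Pgk1, at 307 CPM at day 14 and 144 CPM at day 50, and the lactate exporter gene Slc16a3, at 20.4 CPM at day 14 and 6.25 CPM at day 50. Of 13 measured glucocorticoid and stress genes, 6 were higher and 2 lower, or 5 and 3 in unsubtracted counts. Their median was 0.47. Ddit4, a stress-induced inhibitor of mTOR complex 1, fell from 81.5 to 9.21 CPM (-2.86, interval -3.26 to -2.48), and Fkbp5, a glucocorticoid target, from 51.3 to 14.8 CPM. Another glucocorticoid-responsive gene, the clock gene Per1, rose from 17.2 to 55.9 CPM.

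Some genes known from other tissues were lower. Nrgn, neurogranin, held nearly all of the neuron list, at 543 CPM at day 14 and 89.01 CPM at day 50, and was found in 18.97% of cells at day 14 and 4.76% at day 50, while Rbfox3, Snap25 and Nefm were at 0 in both libraries. Ermn, a cytoskeletal gene of oligodendrocytes, was at 75.4 CPM at day 14 and 10.4 CPM at day 50, while Mag and Cldn11 were at 0 in both libraries and Mog gave 0 and 1 UMI. The oligodendrocyte list as a whole summed to 231 CPM at day 14 and 137 CPM at day 50, with 1 of 6 measured genes higher and 1 lower. Pecam1, known from endothelium, was at 60.3 CPM at day 14 and 16.1 CPM at day 50, while Cldn5 was at 0 in both libraries and Cdh5 gave 3 and 0 UMIs.

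The spinal cord changes were set beside those in brain, which shared no library with them. In brain 4.91% of 12802 genes were called higher at day 50 and 6.15% lower, with 348 cells and 1177903 UMIs at day 50. Of 671 genes called in both tissues, 642 went the same way and 29 opposite ways. Of 2820 genes compared in both tissues and at 50 CPM or more in 1 of the 4 libraries, 545 (19.3%) differed in their change by at least 1.5-fold with an interval of the difference that left out 0, which covers counting error only. Gzmk rose in brain from 56.5 to 118 CPM, a relative ratio of 1.04 against 2.96 in spinal cord, and the difference was 1.91 (1.64 to 2.18) on the log2 scale. Vps37b differed by 1.72 (1.53 to 1.91), Rgs2 by 1.74 (1.57 to 1.91) and Dusp5 by 1.64, each with the larger ratio in spinal cord. Plac8, a gene of migratory leukocytes, fell in both, by 0.64 in spinal cord and by 2.47 in brain. Il22 fell to 6 UMIs in brain, and its difference of 3.69 (2.55 to 4.83) rests on few counts there and, in spinal cord, on the 2 cells that held 77.3% of its day 50 UMIs. Hist1h1e fell by 2.10 in spinal cord and Igfbp7 by 1.76, while in brain they were not called, at 0.08 and 0.12. The difference of spinal cord from brain was -2.17 (-2.53 to -1.82) for Hist1h1e and -1.89 (-2.30 to -1.48) for Igfbp7.

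**Figure D5:**
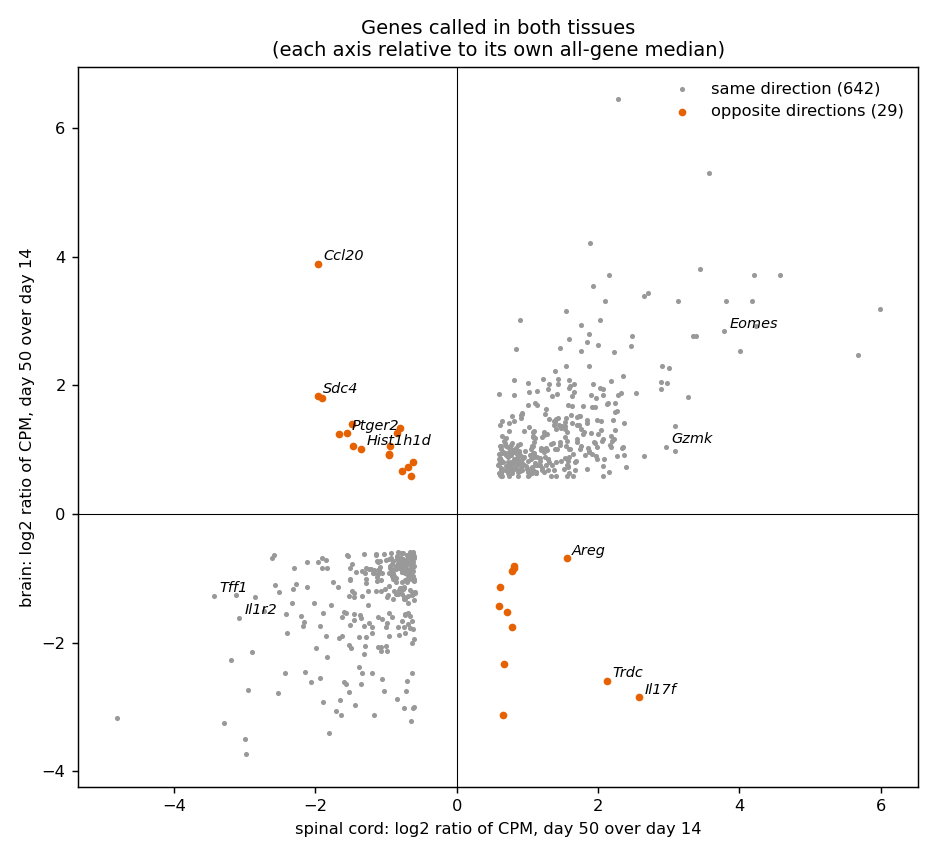
Log2 ratio of CPM (day 50 over day 14) in spinal cord (horizontal) and in brain (vertical), each relative to its own all-gene median, for the 671 genes called in both tissues. The 642 genes called the same way are grey, and the 29 called in opposite directions, such as Il17f, Trdc and Ccl20, are orange.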

How the data were processed

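Single-cell RNA and antibody UMI counts of CD4 T cells from spinal cord and brain at days 14 and 50 were used. The deposited matrices hold raw counts per gene and cell made with Cell Ranger 6.1.1 against mm10, per the submitters' processing notes, with 3 antibody rows beside the genes. The antibody rows were read by their identifiers (CD69, P2X7R, CXCR6), since the names beside them for P2X7R and CXCR6 are those of other antibodies; the labels name the 3 proteins of the identifiers, and the counts were higher in cells with the matching transcript.

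The limits on barcodes were at least 500 detected genes and no more than 10% mitochondrial UMIs, doublets were not removed, and UMIs were summed per library and scaled to CPM. Genes with 10 or more UMIs over both libraries were compared, with exact conditional binomial 95% intervals of the ratio. A library with 0 UMIs was set to 3 counts. For shares of cells, each cell was thinned to 2000 UMIs (shallower cells were left out, 142 at day 14 and 127 at day 50), with Clopper-Pearson intervals, and a share was called at 1.5-fold with intervals apart. Intervals and floors reflect counting error alone. No p-value can be given, since a group is 1 library. The difference between tissues used log counts plus 0.5 with a normal interval.

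The members and 58 gene lists were chosen with earlier results of these data known. Named genes were the 15 called genes in each direction with intervals farthest from 0 at 50 CPM or more, up to 6 called members per list by the same measure, a fixed set, genes that differed between tissues, and those whose share of cells changed most. Other members of the lists are named to show their range, and were chosen after their values were seen. Alternatives were other scalings (edgeR 4.0.16 TMM factors among them), filters, depths and left-out cells. A few genes are not reported here. The interval and call code was tested on simulated data. Python 3.11.15, numpy 2.4.6, scipy 1.17.1, pandas 2.3.3, matplotlib 3.10.9 and R 4.3.3 were used.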

Additional observations from a re-analysis of the deposited data

Results flagged for a closer look

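29 genes were called in opposite directions in spinal cord and brain, and this marked them for a closer look; each is given with its relative log2 ratio in spinal cord and then in brain. Whether the tissues differ was not tested across animals, and in brain at day 50 these genes had 1 to 2500 UMIs with a median of 12, and 12 of them had under 10. 12 genes were higher in spinal cord and lower in brain. These were Adk (0.81 and -0.81), Areg (1.56 and -0.68), Cd1d1 (0.72 and -1.53) and Cdk5rap1 (0.60 and -1.42). Others were Crtc2 (0.67 and -2.33), Gm43581 (0.79 and -1.76), Hist1h2bc (0.81 and -0.83) and Il17f (2.58 and -2.85). Further ones were Nadk2 (0.66 and -3.12), Ncln (0.61 and -1.13), Slc25a38 (0.79 and -0.88) and Trdc (2.13 and -2.59). Without subtracting the median, only Areg (1.27), Il17f (2.29) and Trdc (1.84) of the 12 were still called higher in spinal cord, and the other 9 stood at 0.31 for Cdk5rap1 to 0.52 for Adk. 17 genes were lower in spinal cord and higher in brain. Those were Atp7a (-0.80 and 1.33), Bivm (-0.84 and 1.26), Ccl20 (-1.95 and 3.89) and Creb3l2 (-1.47 and 1.06). They also included Dclre1c (-0.96 and 0.93), Gm14636 (-1.91 and 1.81), Gm4070 (-0.61 and 0.80) and Gm42418 (-0.69 and 0.73). Further genes were Hist1h1d (-1.35 and 1.01), Hist1h2bj (-1.48 and 1.40), Ide (-0.64 and 0.59) and Il21 (-0.95 and 1.05). Also lower in spinal cord were Ptger2 (-1.56 and 1.26), Ptprs (-0.96 and 0.92), Sdc4 (-1.96 and 1.83), Trbv20 (-1.67 and 1.24) and Ube2c (-0.77 and 0.67). Ccl20 had 4 UMIs in spinal cord at day 50, all in 2 cells, and its call there was lost without the 2 richest cells of each library, at -0.42, and without the cells holding 3 or more UMIs of the S phase and mitosis lists, at -0.65. The spinal cord calls of Atp7a, Bivm, Ccl20, Gm14636 and Gm4070 were also lost in cells thinned to 2000 UMIs before summing. Those of Il21, Hist1h2bj, Ide and Ube2c were lost under at least 1 alternative that left out cells.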

How the results depend on the processing

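No paired analysis was possible because 1 library stands for each group, so no replicate could be left out either. Without subtracting the all-gene median, 891 genes were called higher and 3133 lower, and all 891 and 1526 of the 3133 were also called in the reported comparison. A fold of 2 gave 856 higher and 688 lower in CPM, and 213 and 782 in shares of cells. With no minimum of UMIs, 2824 genes were called lower and the all-gene median was -0.0498. In that setting genes with few UMIs at day 14 and 0 at day 50 enter. Their day 50 count is set to 3, or 0.494 CPM, which raises their ratios and so the median. That median was -0.0509 with TMM factors and -0.14 without ribosomal protein and mitochondrial genes. Some called genes changed sign. Cenpe (0.35) and Stmn1 (0.19) did so without cells holding 3 or more UMIs of the S phase and mitosis lists, which left out 52.0% and 57.9% of cells and so does not isolate cycling cells. Cdc6 went to 0.97 without cells with a UMI of Mki67, Top2a, Cdk1, Birc5 or Rrm2, an alternative chosen after seeing the data, as were those without Ccl5, Gzmk or Eomes cells and without CD8, gamma-delta or B cell UMIs. Itgam and Tgfb3 had 0 UMIs at day 50, so their values are bounds against 3 counts. In each setting given for them, day 50 stayed at that floor. Their changes of sign thus come from the day 14 UMIs left and the scaling, not from day 50 UMIs of these genes. Itgam went to 0.49 in thinned cells, 1.08 without the cells holding S phase and mitosis UMIs, 0.70 without those with a Ccl5, Gzmk or Eomes UMI and 0.0253 without those with CD8, gamma-delta or B cell UMIs. Tgfb3 went to 0.0332 and 0.24 under the former 2 settings. Without cells holding a Ccl5, Gzmk or Eomes UMI, Prf1 (-1.09), Ier3 (-0.89) and Ifit3 (-0.0766) changed sign. The cause was not tested for the genes other than Itgam and Tgfb3. Of 57 gene lists with measured members, 30 changed the sign of their median under at least 1 alternative, 11 of them without subtracting the median. Depth limits the day 50 library, where 473 compared genes had no UMI.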
